A study of Mus musculus with 12 samples.

Results

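The cytosolic chaperonin genes and their HSP90 and HSP70 partners form a group of 10 mouse genes, among 21887 protein-coding genes that were searched for listed MYC and MAX peaks. They are the 8 subunit genes of the chaperonin TRiC (Tcp1, Cct2, Cct3, Cct4, Cct5, Cct6a, Cct7 and Cct8), Hsp90ab1 (the constitutive cytosolic HSP90) and Hspa8 (the constitutive cytosolic HSP70, HSC70). The genes were chosen by name, with earlier results of these data known. A peak belongs to a gene here when it overlaps the annotated extent of the gene or the 10 kb on either side by at least 1 bp (build mm10, gene extents from RefSeq on GRCm38.p6, the same assembly).

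Binding was mapped by chromatin immunoprecipitation and sequencing in RAW264.7 cells, a mouse line of monocyte origin that turns into osteoclasts, the bone-resorbing cells, when it is given the cytokine RANKL. Treatment lasted 4 h and was RANKL (50 ng/ml) plus the inhibitor I-BET (500 nM), RANKL (50 ng/ml) or I-BET (500 nM), and a further set of cells was left untreated. I-BET occupies the bromodomains of BET proteins, which bind acetylated histones. Each antibody has 1 peak list per treatment in this single cell line, so no difference between treatments has a replicate check or a p-value. The MYC lists held 11 peaks with RANKL and I-BET, 299 with RANKL, 136 with I-BET and 312 in untreated cells, and the MAX lists held 6307, 10889, 36785 and 8839 in the same order of treatments. The 4 input libraries were not analysed here and read depth is unknown. Macrophage marker genes had a MAX peak in 4, 6, 7 and 5 of 8 cases in that order, and markers of other cell types in 0, 0, 2 and 0 of 8. All protein-coding genes had one in 30.0%, 42.3%, 65.0% and 37.4% of cases. The macrophage markers Spi1 and Cd68 had a MYC peak with RANKL (best ranks 235 and 45 of 299). The Spi1 peak lay within 1 kb of an end of Spi1, and no MYC peak lay that near an end of Cd68. Adgre1 had no peak in any list, and a peak does not measure expression.

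TRiC is a ring of related subunits that closes around newly made proteins, above all actin and tubulin, and folds them with the use of ATP. HSC70 takes up chains earlier and hands many of them on, and HSP90 finishes kinases and hormone receptors. MYC binds E-box DNA as a pair with MAX and is known for binding near genes of ribosome building, protein synthesis and folding. MAX has other partners besides MYC, so a MAX peak does not name the partner.

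MAX peaks were listed near all of these genes in most treatments. With RANKL and I-BET 9 of 10 had a MAX peak (exact 95% interval 55.5% to 99.7%), against 30.0% of all protein-coding genes. With RANKL it was 10 of 10, against 42.3% of all genes. With I-BET it was 10 of 10, against 65.0%. In untreated cells it was 10 of 10, against 37.4%. The gene without a MAX peak with RANKL and I-BET was Cct5. The intervals cover counting error only.

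MYC peaks were few. With RANKL and I-BET 0 of 10 genes had a MYC peak (0.0640% of all protein-coding genes did), with RANKL 3 of 10 (exact 95% interval 6.67% to 65.2%, all genes 2.02%), with I-BET 0 of 10 (all genes 0.434%) and in untreated cells 1 of 10 (all genes 2.05%). The genes with RANKL were Cct7, Cct8 and Hspa8, and the gene in untreated cells was Cct3. No gene of the group had MYC in more than 1 list.

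**Figure D1:**
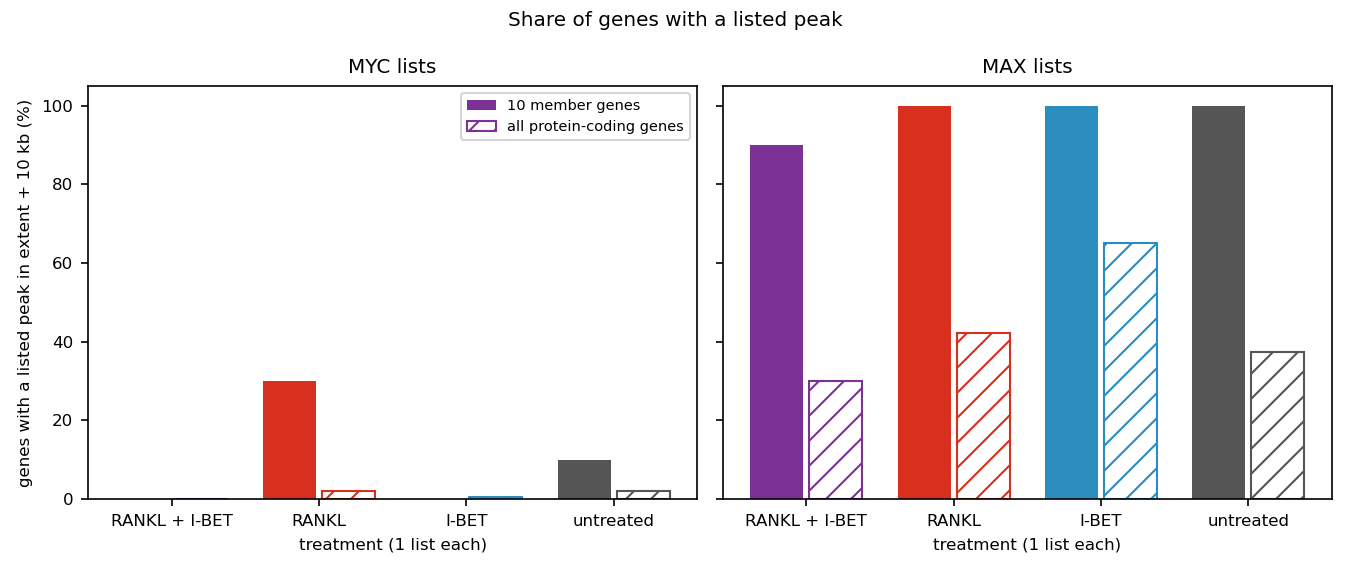
Percent of genes with a listed peak in the gene extent plus 10 kb (y axis) for each treatment (x axis, 1 list each), for MYC (left) and MAX (right). Filled bars are the 10 chaperonin, HSP90 and HSP70 genes and hatched bars all 21887 protein-coding genes. MAX reaches 9 or 10 of the 10 genes in every treatment, and MYC reaches 3 with RANKL, 1 in untreated cells and 0 in both I-BET treatments.

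The MYC peaks lay within 1 kb of an end of their gene and low in their lists. By that narrower window the counts of genes with MYC were the same, 0 with RANKL and I-BET (0.0183% of all protein-coding genes), 3 with RANKL (1.04%), 0 with I-BET (0.0685%) and 1 in untreated cells (1.05%). Ranks here follow the authors' deposited score, highest first, and are used within a list only. The Cct8 peak with RANKL was 267 bp wide at rank 218 of 299, and it covered the start of Cct8 (CCT theta), from position -155 to 111. The Cct7 peak with RANKL was 422 bp wide at rank 240 of 299. It lay 369 to 790 bp after the start of Cct7 (CCT eta), over a start of the neighbour Pradc1 at 465 bp. The Hspa8 peak with RANKL was 453 bp wide at rank 245 of 299 and lay 140 to 592 bp inside the lower-coordinate end of Hspa8. The Cct3 peak in untreated cells was 251 bp wide and had rank 306 of 312. It spanned positions -280 to -30 relative to the start of Cct3 (CCT gamma). It thus did not reach that start, and it lay over a start of the neighbour Tsacc at -136.

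All 4 of these MYC peaks ranked below the median best rank of genes with a MYC peak in the same list, which was 156 with RANKL and 164 in untreated cells. Each overlapped a MAX peak of the same treatment, 3 of 3 with RANKL and 1 of 1 in untreated cells, by at least 1 bp. Where the overlap had to reach 50% of both peaks, it was 0 of 3 and 0 of 1. Each of the 4 MYC peaks lay wholly inside its MAX peak, so that setting failed on the share of the wider MAX peak. Those MAX peaks were 1208 bp wide at Cct7, 950 bp at Cct8, 1131 bp at Hspa8 and 1233 bp at Cct3. Over the whole lists, by at least 1 bp, the share of MYC peaks that overlapped MAX was 93.6% with RANKL and 95.2% in untreated cells. It was 37.5% in the MYC list with I-BET. The median peak width in that list was 72.5 bp, against 307 bp with RANKL and 260 bp in untreated cells. None of the 3 peaks with RANKL overlapped an untreated MYC peak, and the Cct3 peak overlapped none with RANKL or with I-BET. For all MYC peaks, 49.2% of those with RANKL overlapped an untreated one. Of all untreated MYC peaks, 47.8% overlapped one with RANKL and 9.62% one with I-BET. None of the 4 peaks scored at or above the median of its list.

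Cct3 was chosen for its MYC peak just before the start and Cct8 for its MYC peak over the start. Cct2 and Cct5 were chosen because no MAX peak was listed at their start with RANKL and I-BET. Sequences before the start are shown for these genes, on which the comparisons turn. They are the 250 bases before the start from RefSeq on GRCm38.p6, 5′ to 3′ on the strand of the gene, at chr3:88296885-88297134 (plus strand, Cct3), chr16:87495870-87496119 (minus strand, Cct8), chr10:117063853-117064102 (minus strand, Cct2) and chr15:31601847-31602096 (minus strand, Cct5). In untreated cells the MAX peaks of Cct2 and Cct5 lay at positions -3 to 448 and 39 to 637, almost wholly outside these 250 bases. With RANKL they lay at -74 to 524 and 85 to 543, and the I-BET peaks began at -175 and -536. Capitals mark matches, on either strand, of CACGCG (an E-box variant), CANNTG (the general E-box), CCAAT (the NF-Y box) and GGGCGG (the GC box of SP proteins).
Cct3: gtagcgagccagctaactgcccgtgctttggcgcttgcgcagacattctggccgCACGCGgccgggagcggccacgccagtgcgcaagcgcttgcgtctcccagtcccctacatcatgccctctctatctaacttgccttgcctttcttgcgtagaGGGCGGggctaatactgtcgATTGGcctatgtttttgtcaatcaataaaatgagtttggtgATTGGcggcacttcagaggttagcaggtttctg
Cct8: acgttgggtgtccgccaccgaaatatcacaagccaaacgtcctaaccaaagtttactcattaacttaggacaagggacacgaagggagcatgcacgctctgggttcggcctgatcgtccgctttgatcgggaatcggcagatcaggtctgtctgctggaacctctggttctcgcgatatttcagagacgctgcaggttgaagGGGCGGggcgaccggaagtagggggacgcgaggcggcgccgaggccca
Cct2: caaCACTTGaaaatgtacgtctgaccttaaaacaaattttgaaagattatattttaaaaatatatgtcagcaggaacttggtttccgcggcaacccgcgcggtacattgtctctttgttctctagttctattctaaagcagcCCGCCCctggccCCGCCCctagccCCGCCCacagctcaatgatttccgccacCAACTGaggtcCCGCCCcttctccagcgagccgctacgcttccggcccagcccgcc
Cct5: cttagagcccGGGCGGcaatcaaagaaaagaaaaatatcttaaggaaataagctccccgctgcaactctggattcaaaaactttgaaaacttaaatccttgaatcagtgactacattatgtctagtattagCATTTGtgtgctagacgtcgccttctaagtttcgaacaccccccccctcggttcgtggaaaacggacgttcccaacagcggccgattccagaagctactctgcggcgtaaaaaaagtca

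The full windows of 250 bases before to 50 bases after the start were searched on both strands for 7 genes with 9 windows. Cct4, Hsp90ab1 and Hspa8 have no entry. The canonical E-box CACGTG was in 0 of the 9 windows, against 7.15% of the 32851 windows in the table. The variant CACGCG was in 1, that of Cct3, against 9.27% of all windows. It begins at position -196 from the start and lies inside the untreated MYC peak of Cct3. CATGCG was in 1 window, of Cct5, against 6.50% of all windows, and 2 further matches lie in windows of neighbours. They are at position 678 from the start of Cct7, inside its RANKL MYC peak (window of Pradc1), and at position -258 from the start of Cct3, inside its untreated MYC peak (window of Tsacc). CATGTG was in 2 windows, of Cct2 and Cct5, against 14.2%. The loose form CANNTG, which contains CACGTG and CATGTG, was in 6 of 9 windows, against 72.3%.

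Other promoter elements were searched in the same windows. The 250 bases before the start had a median GC content of 59.2% in the 9 windows (45.2% to 66.8%), against 52.4% in all windows, and the part of base composition in these counts was not tested. GGGCGG was in 8 of 9, against 35.7% of all windows, and in at least 1 window of each of the 7 genes. TTCCGG (the core of ETS sites) was in 5 of 9, against 14.9%. CCAAT was in 4 of 9, against 37.4%, at Tcp1, Cct3, Cct6a and Cct7. The heat shock core GAANNTTC was in 1, of Cct2, against 7.86%. A match describes the letters only. The windows cover between 0% and 61.5% of the gene-end MAX regions described next, so a large share of the listed sequence was not searched.

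At each of the 10 genes, 1 end carried a MAX peak in at least 3 of the 4 lists. Peaks of all lists near the genes merge into 30 regions, of which 12 lie within 1 kb of an end of their own gene and 18 elsewhere. Of the 12, 8 were in all 4 MAX lists, and of the 18, 0 were. Hsp90ab1 also had 2 regions at its other end, both with I-BET only. For the 7 genes whose start is known from the promoter table, the merged region at the gene end covered the start. For Cct4 and Hspa8 it covered the lower-coordinate end and for Hsp90ab1 the higher-coordinate end. The peak of a single list need not cover the start. In untreated cells the Cct7 peak began 289 bp and the Cct5 peak 39 bp after the annotated start of its gene. The Cct5 peak covered a further listed start of Cct5. Within 1 kb of a gene end, 8 of 10 genes had a MAX peak with RANKL and I-BET (18.6% of all protein-coding genes), 10 of 10 with RANKL (27.8%), 10 of 10 with I-BET (50.3%) and 10 of 10 in untreated cells (23.7%).

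At 7 of the 10 genes this merged region also holds the start of another gene. The neighbours are Mrpl18 at Tcp1, Tsacc at Cct3, Atpsckmt at Cct5, Psph at Cct6a and Pradc1 at Cct7, and the non-coding genes B130034C11Rik at Cct8 and Gm35399 at Hsp90ab1. A peak over the starts of both genes cannot be assigned to either from position. At Tcp1 only the I-BET peak (positions -862 to 880) reached the Mrpl18 start at -238. At Cct5 only the I-BET peak reached the Atpsckmt start. It lay 10097 to 11582 bp from the lower-coordinate end of Cct5, and the Atpsckmt start at 11316 bp. The annotated extent of Cct6a is 59088 bp, and its only peaks were at its start and, with I-BET (rank 21770), at positions -8465 to -7789 from it.

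**Figure D2:**
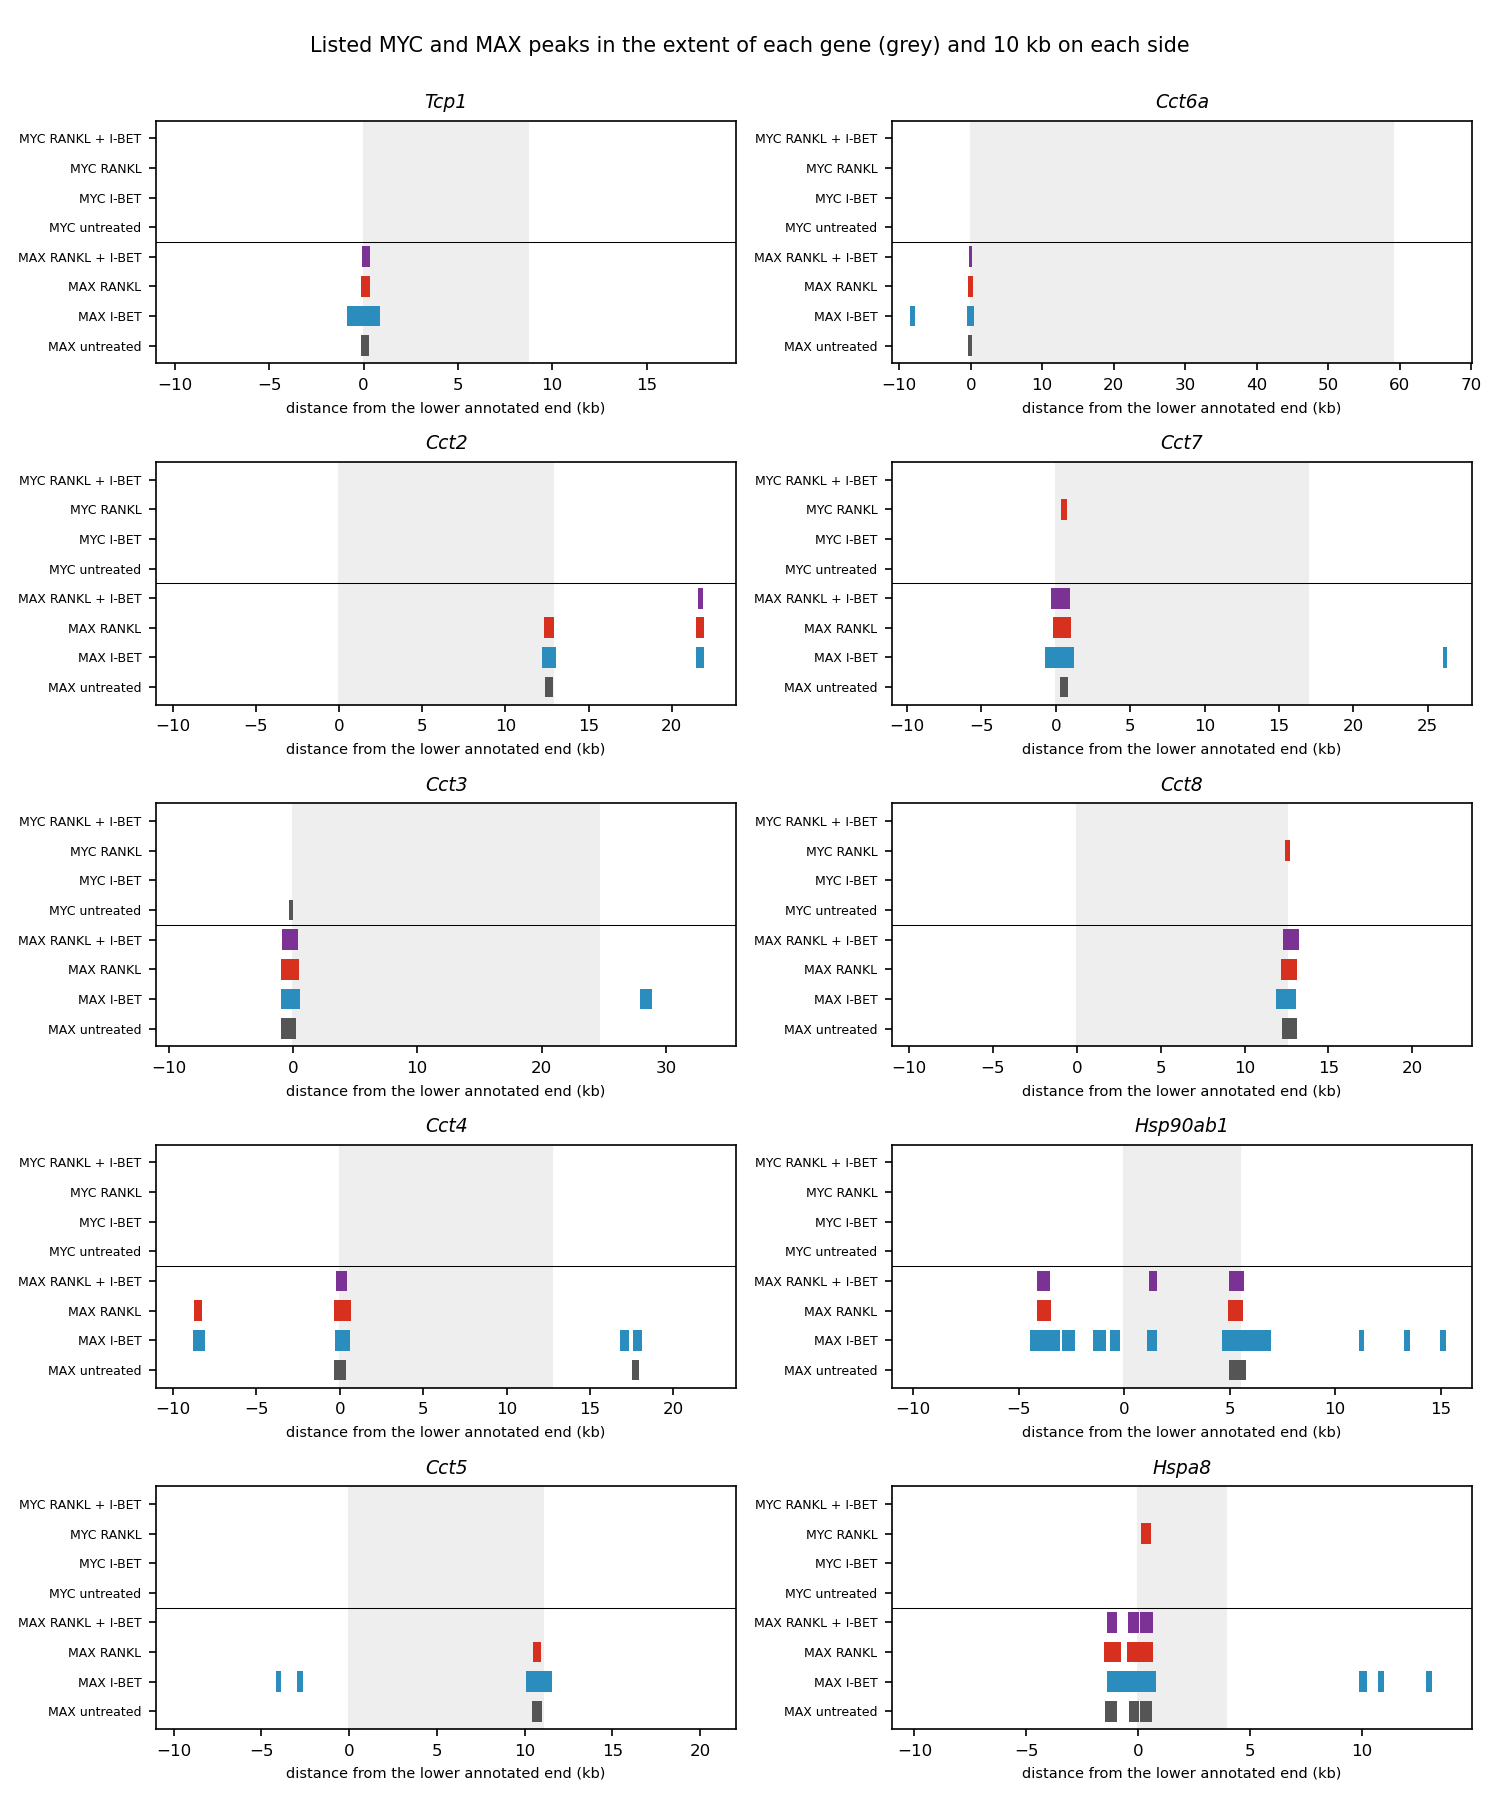
Listed peaks near each gene, drawn to scale by distance from the lower-coordinate end of the gene (x axis, kb), with the gene extent in grey. Rows are the MYC lists (above the line) and the MAX lists (below it). MAX peaks of 3 or 4 lists stack at 1 end of each gene, Cct2 and Cct5 lack that peak with RANKL and I-BET, and the I-BET list adds peaks away from it.

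The genes lie on 9 chromosomes. Tcp1 is at chr17:12916329-12925067, Cct2 at chr10:117050997-117063852, Cct3 at chr3:88297135-88321766, Cct4 at chr11:22990593-23003336 and Cct5 at chr15:31590800-31601846. Cct6a is at chr5:129787356-129846443, Cct7 at chr6:85451505-85468477 and Cct8 at chr16:87483325-87495869. Hsp90ab1 is at chr17:45567778-45573261 and Hspa8 at chr9:40801276-40805202.

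The genes differed in where their gene-end MAX peak stood in the list. Cct4 (CCT delta) had its best peak at rank 1122 of 6307 with RANKL and I-BET, 1792 of 10889 with RANKL, 101 of 36785 with I-BET and 288 of 8839 in untreated cells. It was the highest of the 10 genes with I-BET and in untreated cells. Cct3 stood at rank 512 with RANKL and I-BET, 1436 with RANKL, 644 with I-BET and 594 in untreated cells. It was the highest of the group with RANKL and I-BET. Cct8 stood at 1163, 1413, 599 and 1399 in the same order of treatments, and it was the highest with RANKL.

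Tcp1 (CCT alpha) stood at rank 1787 with RANKL and I-BET, 2548 with RANKL, 2635 with I-BET and 1207 in untreated cells. Cct7 stood at 4384, 2631, 1515 and 816 in that order. Cct6a (CCT zeta) stood at 5485, 1502, 1492 and 3100. As a position in the list, Cct7 lay at 69.5% and Cct6a at 87.0% of the way down with RANKL and I-BET, in the lower part of that list. The lists differ in length and scoring, so these ranks show no change between treatments.

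Hsp90ab1 had its gene-end peak at rank 3300 with RANKL and I-BET, 1570 with RANKL, 6267 with I-BET and 3367 in untreated cells. Hspa8 was covered by several peaks at the same end, 3 with RANKL and I-BET, 2 with RANKL, 1 with I-BET and 3 in untreated cells. The best of them stood at ranks 2557, 3399, 2045 and 2892 in that order. Together they spanned positions -1531 to 791 from the lower-coordinate end of Hspa8, and the single I-BET peak joined what were separate peaks in untreated cells.

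Cct2 and Cct5 were the genes whose gene-end MAX peak was missing from a list. Cct2 (CCT beta) had it at rank 3836 with RANKL, 1419 with I-BET and 3636 in untreated cells, and had none with RANKL and I-BET. In that treatment its window held only a peak at rank 3688 inside the neighbour Frs2, at positions -9012 to -8714 from the start of Cct2. A peak at this Frs2 site was also listed with RANKL (rank 3325) and with I-BET (rank 5868), and not in untreated cells. Cct5 (CCT epsilon) had its peak at rank 10276 of 10889 with RANKL, which is 94.4% of the way down, at rank 4430 with I-BET and at rank 1929 in untreated cells.

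**Figure D3:**
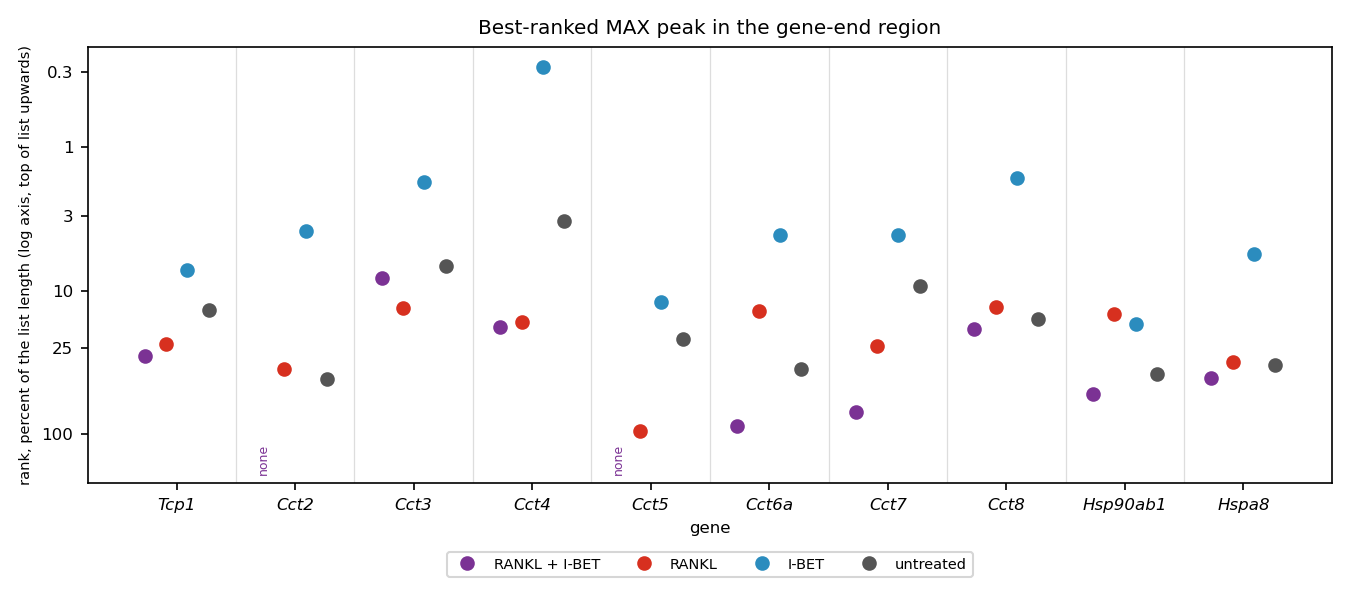
Position of the best-ranked MAX peak in the gene-end region of each gene, as percent of the list length (y axis, log scale, top of the list upwards), for the 4 treatments (colours, 1 list each). Cct4 with I-BET stands highest at 0.275%, Cct5 with RANKL lowest at 94.4%, and Cct2 and Cct5 have none with RANKL and I-BET.

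Set beside all genes with a MAX peak, most of the 10 ranked higher. The median of the best rank in the window was 2167 for the 9 genes listed with RANKL and I-BET, against 2605.5 for all protein-coding genes with a peak. With RANKL the medians were 2170 for the 10 genes and 4037.5 for all, with I-BET 1503.5 and 6025, and in untreated cells 1664 and 3460. Genes above the median of all were 6 with RANKL and I-BET, and 9 in each of the other treatments. The listed genes under it were Cct2, Cct6a and Cct7 with RANKL and I-BET, Cct5 with RANKL, Hsp90ab1 with I-BET and Cct2 in untreated cells. With RANKL and I-BET, Hsp90ab1 was above it only through the peak at rank 2167, at the ends of Nfkbie and Slc35b2. Its own gene-end peak stood at 3300, and the rank of Cct2 (3688) was that of the peak inside Frs2.

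The combination of RANKL and I-BET was compared with each agent alone. Against RANKL, 1 of 10 genes lost its MAX peak in the window, Cct5, where 13.6% of all protein-coding genes lost one and 1.35% gained one. Among genes with a MAX peak with RANKL, 32.2% lost it. Against I-BET the same gene was lost, where 35.0% of all genes were lost and 0 gained. Among genes with a MAX peak with I-BET, 53.8% lost it. Within 1 kb of gene ends the losses were Cct2 and Cct5 in both comparisons. Of all genes, 10.4% lost such a peak relative to RANKL and 31.6% relative to I-BET. All 10 genes had a gene-end peak with RANKL and with I-BET. Among all genes that had one, 37.6% lost it relative to RANKL and 62.9% relative to I-BET. By peaks, 12 of the 13 found with RANKL and I-BET were listed with RANKL, against 89.5% of all such peaks, and 13 of 13 with I-BET, against 99.0%. The peak not listed with RANKL lay inside Hsp90ab1, 1200 to 1557 bp from its lower-coordinate end (rank 5536). These comparisons share the combination list, so their values stand side by side only.

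RANKL was compared with untreated cells. No gene of the group gained or lost a MAX peak in the window, where 7.99% of all protein-coding genes gained one and 3.07% lost one. All 10 already had a peak in untreated cells, so none could be gained. Of the 14 RANKL peaks, 11 were listed in untreated cells, against 66.0% of all RANKL peaks. The others were at the Frs2 site, inside Commd1 near Cct4 (rank 10149), and at the ends of Nfkbie and Slc35b2 near Hsp90ab1 (rank 3051). Of 13 untreated MAX peaks, 12 were listed with RANKL, against 82.0% of all untreated peaks. The exception lay inside Fam161a near Cct4 (rank 8601).

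For MYC, RANKL against untreated cells gave 3 genes gained and 1 lost, where 1.01% of all protein-coding genes gained a MYC peak and 1.04% lost one. The MAX peaks under these sites were listed in both treatments. At Cct7 the untreated MAX peak stood at rank 816 and at Cct8 at 1399 with no MYC peak listed, and at Cct3 the MAX peak with RANKL stood at 1436 with none. With I-BET against untreated cells the group lost its only MYC peak, where 1.88% of all genes lost one and 0.265% gained one. Of the 449 genes with a MYC peak in untreated cells, 91.8% lost it with I-BET and 50.8% with RANKL. With RANKL and I-BET against RANKL the group lost all 3, where 1.96% of all genes lost one and 0.00457% gained one. Those losses are 97.1% of the 443 genes with a MYC peak with RANKL. Against I-BET the group had no MYC peak to lose and gained none, where 0.425% of all genes lost one and 0.0548% gained one.

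The next comparison sets I-BET against untreated cells, and it shares the untreated list with the RANKL comparison. No gene gained or lost a MAX peak in the window, where 27.7% of all protein-coding genes gained one and 0.0959% lost one. Each of the 10 had a peak in untreated cells, so no gain was possible. Among genes without an untreated MAX peak, 44.3% gained one. All 13 untreated peaks were listed with I-BET, against 97.5% of all untreated MAX peaks. The number of peaks near the 10 genes was 30 with I-BET and 13 in untreated cells. It was 14 with RANKL and 13 with RANKL and I-BET. With I-BET the mean was 3 peaks per gene against 2.07 for all protein-coding genes, and in untreated cells 1.3 against 0.557.

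The added I-BET peaks lay mostly away from the shared regions and low in the list. Of the 30 merged regions 15 were in the I-BET list of MAX only, and of all 37124 merged MAX regions 66.9% were. At Hsp90ab1 9 peaks were listed with I-BET and 1 in untreated cells. The 9 included 4 over Slc35b2, at ranks 6318, 27015, 32497 and 36341, and 3 beyond the higher-coordinate end of Hsp90ab1, at ranks 20559, 24677 and 35418. Hspa8 had 3 such peaks 9858 to 13159 bp from its lower-coordinate end, at ranks 18225, 27361 and 30172. Cct5 had 2 over Cmbl at ranks 19522 and 29666, and Tcp1, Cct2 and Cct8 had none that was in the I-BET list alone.

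The gene-end regions were also longer with I-BET. At Tcp1 the listed MAX peaks covered 1743 bp with I-BET, against 412 bp untreated, a ratio of 4.23. At Cct7 it was 1936 bp and 570 bp (3.40), at Hsp90ab1 2345 bp and 795 bp (2.95), at Cct5 1486 bp and 599 bp (2.48), and at Cct3, the least, 1511 bp and 1233 bp (1.23). All 10 regions were longer with I-BET, with a median ratio of 1.83, and over all 8615 untreated MAX peaks listed with I-BET 92.5% were longer with a median ratio of 1.90. At the 10 genes lengths were summed over each merged region, while over all peaks the ratio was taken for each single untreated peak. The 2 measures are therefore not the same, here and for the other treatments. No test of a difference between these genes and the whole list was made.

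With RANKL the median ratio to untreated cells was 1.16 over 10 regions and 1.13 over all peaks. Longer were 8 of the 10 regions, against 69.0% of all peaks. Cct7 had the largest ratio, with 1208 bp with RANKL and 570 bp in untreated cells. Its length with RANKL and I-BET was 1268 bp, and in both treatments its peak reached over the start of Cct7, while the untreated peak began 289 bp after it. Cct5 was shortest relative to untreated cells, with 459 bp with RANKL and 599 bp untreated. With RANKL and I-BET the median ratio over 8 regions was 0.992, against 0.895 over all peaks.

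**Figure D4:**
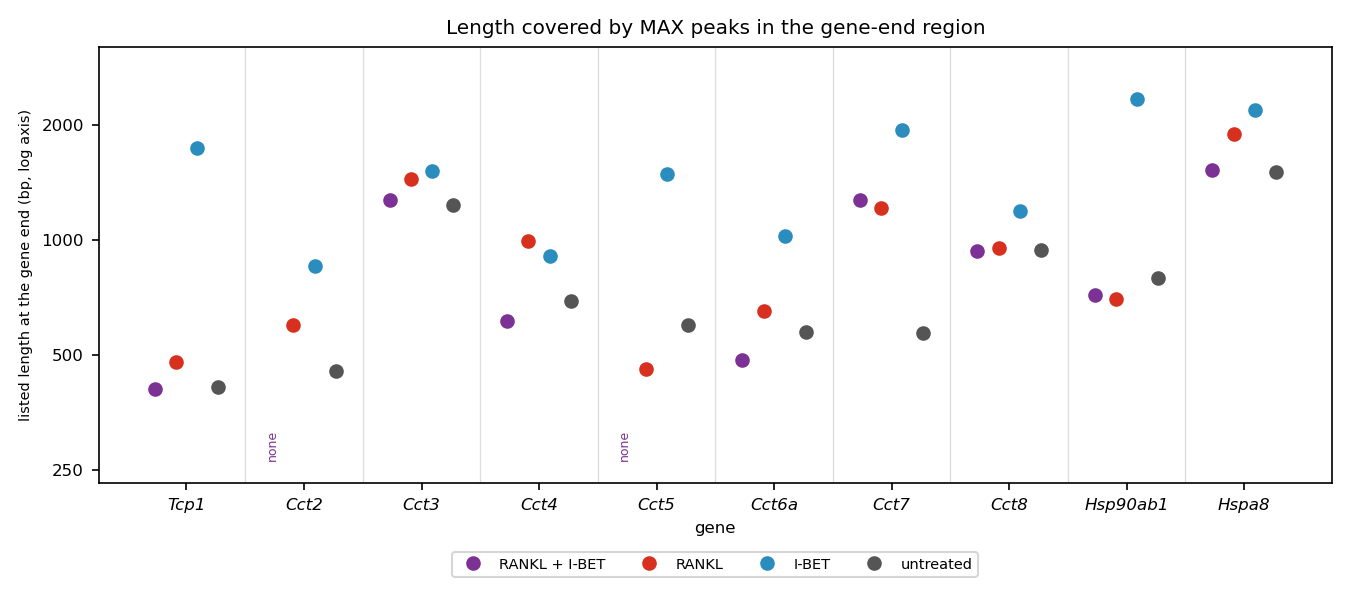
Length covered by listed MAX peaks in the gene-end region of each gene (y axis, bp, log scale) for the 4 treatments (colours, 1 list each). The I-BET value is the highest at every gene except Cct4, where RANKL gives 990 bp and I-BET 907 bp.

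The patterns over the 8 lists were few. Tcp1, Cct2, Cct4, Cct6a and Hsp90ab1 had MAX in all treatments and no MYC, as did 23.6% of all protein-coding genes. Cct7, Cct8 and Hspa8 had MAX in all and MYC with RANKL only, as did 0.969% of all genes, and Cct3 had MAX in all and MYC in untreated cells only, as did 0.969%. Cct5 had MAX in all but the combination, as did 7.50%. Likeness was measured as the mean absolute difference, over the 8 lists, between the position of the best peak of a gene in each list (percent, 100 where absent) and the median position of the 10 genes. The 5 nearest genes were Chd9 (0.285 percentage points), Rrn3 (0.358), Cyp26b1 (0.689), and Cltb and Higd2a (0.828 each, sharing their peaks). The nearest of the group was Tcp1 at 2.60 and the farthest Cct5 at 18.5.

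Other genes of the folding machinery were looked at in lists of partners, of which 74 of 75 genes matched the gene table. With RANKL and I-BET 43 of 74 had a MAX peak in the window, with RANKL 58, with I-BET 74 and in untreated cells 51. Over all protein-coding genes the shares were 30.0%, 42.3%, 65.0% and 37.4% in that order. For MYC the counts were 0, 4, 2 and 5, and the shares over all genes 0.0640%, 2.02%, 0.434% and 2.05%. The counts of single lists below are to be read against the same shares. A gene counted there has a peak in its window, which need not lie at an end of the gene. No gene of these lists was without a MAX peak in every treatment.

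Prefoldin, which hands actin and tubulin chains to TRiC, had a MAX peak at 1 of 6 genes with RANKL and I-BET, 2 with RANKL, 6 with I-BET and 3 in untreated cells, beside 30.0%, 42.3%, 65.0% and 37.4% of all genes. Pfdn1 was listed with I-BET alone (rank 32792), Pfdn2 with RANKL (8748) and I-BET (7786), and Pfdn4 and Pfdn5 with I-BET (12532 and 6495) and in untreated cells (8609 and 3581). Pfdn6 was listed in all 4, and its MYC peak with RANKL (rank 219) began at position -9476 from its lower-coordinate end, at the ends of Tapbp and Rgl2. The phosducin-like and chaperonin-like cofactors had 0, 2, 6 and 1 of 6, and Bbs10, Mkks and Pdcl were listed with I-BET alone. Cct6b, the testis form of the zeta subunit, was listed with I-BET alone (rank 9640).

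Hsp90aa1 (the inducible cytosolic form), Hsp90b1 (the form of the endoplasmic reticulum) and Trap1 (the mitochondrial form) had MAX peaks in all 4 lists. Trap1 stood highest of them, at rank 311 with RANKL and I-BET, 833 with RANKL, 542 with I-BET and 1180 in untreated cells. HSP90 cochaperones had a MAX peak in 11 of 14 cases with RANKL and I-BET, 13 with RANKL, 14 with I-BET and 13 in untreated cells. Ahsa1, Chordc1 and Fkbp4 were in all 4, and Cdc37, the adaptor for kinases, was absent with RANKL and I-BET. None of these had a MYC peak.

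Among other HSP70 genes, 7 of 13 had a MAX peak with RANKL and I-BET, 12 with RANKL, 13 with I-BET and 8 in untreated cells. Hspa1a (inducible HSP70) and Hspa12a were in all 4, and Hspa13 and Hspa14 with RANKL and with I-BET only. In no list did a MAX peak lie within 1 kb of an end of Hspa1a, and its best ranks were also those of Hspa1l. Hyou1, a chaperone of the endoplasmic reticulum, had a MYC peak in untreated cells (rank 230). HSP70 cochaperones had 11 of 17 with RANKL and I-BET, 15 with RANKL, 17 with I-BET and 13 in untreated cells. Bag5 was in all 4, Bag1 and Bag2 in all but the combination, and Bag3 in all but untreated cells. Dnajc2, a J-domain protein at the ribosome, had a MYC peak with RANKL (rank 251), at the ends of both Dnajc2 and Psmc2.

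The mitochondrial chaperonin genes Hspd1 and Hspe1 are neighbours with a shared MAX peak, at rank 236 with RANKL and I-BET, 311 with RANKL, 66 with I-BET and 233 in untreated cells. In each treatment this was above every gene-end peak of the cytosolic chaperonin genes. MYC was listed there with RANKL (rank 195 of 299), with I-BET (132 of 136) and in untreated cells (17 and 111 of 312), and not with RANKL and I-BET.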

How the data were processed

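The series has 12 ChIP-seq libraries of RAW264.7 cells, of which 4 are inputs, and 8 peak lists were used. Formaldehyde at 1% was applied for 15 min before ChIP, and reads were single-end and 50 bp long, per the labels' protocols. The submitters' processing notes name FastQC, Bowtie2 2.3.4.1, MACS2 2.1.1.20160309 and the builds mm10 and GRCm38. The sources used here do not give how input and thresholds were applied. The deposited score of a peak is the authors' own value. Each row joins calls from 3 call sets of unstated nature. MYC and MAX lists carry different tags, so only positions were compared between them. BED starts were raised by 1.

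Genes are the RefSeq protein-coding genes of GRCm38.p6 on chromosomes 1 to 19, X and Y. That table has no strand. Starts came from the promoter table. A gene end means within 1 kb of either annotated end. Background shares count all 21887 genes in the same way. Regions are peaks of all lists merged where they overlap. No test was run, since each antibody and treatment has 1 list. Exact intervals are Clopper-Pearson 95%.

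The members and gene lists were chosen with earlier results of these data known. All members are named. Of other lists, genes with a MYC peak, genes without MAX in every list and up to 4 more in alphabetical order are named, with neighbours within 1 kb of a peak. Adgre1 and neighbours farther than 1 kb (Frs2, Fam161a, Commd1, Cmbl) were singled out after their values were seen. Counting used pandas 2.3.3 and numpy 2.4.6 in Python 3.11.15, intervals scipy 1.17.1, and figures matplotlib 3.10.9. Overlap counting was tested on simulated data.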

Additional observations from a re-analysis of the deposited data

How the results depend on the processing

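No paired analysis was possible because each antibody and treatment has 1 list, and no list can be left out of a group. Of 42 recounts of the 10 genes with a peak, 38 stayed within 1.5 times the reported count under windows of 1 kb or 5 kb, gene ends, higher scores, equal numbers of top peaks, midpoints and leaving out peaks under 100 bp. A further 13 started from 0, which these settings could not change. With scores at or above the list median, and with the 136 top peaks, MYC was at 0 of the 10 genes with RANKL and 0 in untreated cells. Equal numbers could not be taken from the 11 MYC peaks with RANKL and I-BET. Windows of 1 kb and 5 kb left 8 of 10 genes with MAX with RANKL and I-BET, without Cct2 and Cct5. Scores at or above the median left 6 there, without Cct2, Cct5, Cct6a and Cct7, and 9 with RANKL, without Cct5. The wider chaperone lists had MYC at 0 genes with RANKL, 0 with I-BET and 3 in untreated cells at or above the median score, and at 0 with RANKL and 3 in untreated cells among equal numbers. For MAX they had 26 genes with RANKL and I-BET and 31 in untreated cells at or above the median score. Reciprocal overlap of 50% gave 6 of 13 MAX peaks with RANKL and I-BET listed again with I-BET, 6 of 30 the other way, 6 of 30 I-BET peaks listed again in untreated cells, and 6 of 13 the other way. At that setting 0 of 3 MYC peaks with RANKL and 0 of 1 in untreated cells overlapped MAX. Each of these MYC peaks lay wholly inside a wider MAX peak. Equal numbers left 0 MYC peaks to compare. Counting CACGCG with CACGTG gave 1 gene with an E-box in place of 0. Beyond the widths of these MYC and MAX peaks, the cause of the changes under other settings was not tested. The share of all protein-coding genes with a peak moved in 20 of 55 recounts. Low rank and unknown read depth limit every MYC statement: absence from a MYC list does not show that a site was unbound.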

Other observations

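Actin and tubulin genes encode the main clients of TRiC. A MAX peak was listed in the window of 6 of 10 such genes with RANKL and I-BET, 7 with RANKL, 10 with I-BET and 6 in untreated cells, beside 30.0%, 42.3%, 65.0% and 37.4% of all protein-coding genes. Actb and Actg1 had MAX in all 4 lists, with best ranks for Actb of 2827 with RANKL and I-BET, 2579 with RANKL, 4009 with I-BET and 4236 in untreated cells. Tuba1a was listed with I-BET alone (rank 14001). Tuba1b had MAX in all 4 (ranks 418, 886, 399 and 2089 in that order of treatments) and a MYC peak in untreated cells at rank 294 of 312.

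Of the heat shock factors, which drive chaperone genes under stress, Hsf1 had MAX in all 4 lists at ranks 427, 773, 199 and 314 in the same order. Hsf2 had MAX in its window at 3116, 2779, 3685 and 3736, but in no list within 1 kb of an end of Hsf2. Hsf1 had a MYC peak in untreated cells at rank 76 of 312. It lay at the lower-coordinate end of Hsf1, within 1 kb of an end of Bop1, a ribosome biogenesis gene.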
